A study of Rattus norvegicus with 7 samples.

Results

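The Dlk1-Dio3 region is an imprinted chromosome segment that holds one of the largest groups of miRNA genes in mammals. Its miRNAs were measured in rat pancreatic islets at 2 ages. The members were chosen by name alone, as every rat miRNA on the array that carries one of the miRNA names of the region, and no measured value entered the choice. The rule found 77 of the 677 rat miRNAs on the array, which map to 41 hairpins in the RefSeq annotation. All 41 lie between Dlk1 and Dio3 in RefSeq order, 12 of them before Mir379 and 29 from Mir379 to Mir410.

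Islets were isolated by collagenase digestion from male Wistar rats that had received no treatment named in the labels. The total RNA of each rat, 4 of 12 months and 3 of 3 months, was labelled with Cy3 and read on its own single-colour miRNA array from Agilent. The rats keep the numbers of their labels: rats 2, 4, 10 and 16 were 12 months old, and rats 9, 11 and 13 were 3 months old. The study asked which islet miRNAs change with age. A whole-islet sample holds endocrine, endothelial and other cells, so that fewer cells of a type and less RNA per cell cannot be told apart.

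Genomic imprinting leaves only 1 parental copy of a gene active. In this region the paternal copy gives the protein-coding genes Dlk1, Rtl1 and Dio3, and the maternal copy gives the long noncoding RNA Meg3 and the miRNAs, which are thought to be cut from long shared transcripts. Each hairpin can yield a mature miRNA from its 5′ arm and from its 3′ arm, and a mature miRNA finds its target mRNAs mainly through bases 2 to 8, the seed. Lower levels of several miRNAs of the region have been described in islets of human donors with type 2 diabetes.

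RefSeq (GRCr8) lists 75 mature sequences for the 41 hairpins, with 71 seeds. Of the 77 array names, 11 equal a RefSeq name. The older array names, with or without a star, do not say which arm a probe set reads, so both arms are shown for such hairpins. The array header names an older rat build (rn4), and positions are therefore given only as the order of hairpins. The first sequences belong to the 6 hairpins with a member at an unadjusted p below 0.05 in the age comparison (seed in capitals, written 5′ to 3′). The array's miR-409-3p is set beside the arms that RefSeq calls miR-409a. RefSeq lists a single arm for miR-668.

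miR-668: uGUCACUCggcucggcccacuacc
miR-409a-5p: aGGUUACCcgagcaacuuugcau
miR-409a-3p: aAUGUUGCucggugaacccc
miR-539-5p: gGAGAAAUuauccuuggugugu
miR-539-3p: cAUACAAGgguaauuucuuuuc
miR-323-5p: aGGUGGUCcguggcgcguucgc
miR-323-3p: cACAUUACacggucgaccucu
miR-770-5p: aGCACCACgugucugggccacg
miR-770-3p: gUGGGCCUgacguggag
miR-379-5p: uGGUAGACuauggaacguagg
miR-379-3p: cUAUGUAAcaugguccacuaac

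None of these 11 sequences shared a seed with another of them. Within the whole region 3 seeds occurred more than once. One was common to miR-381-3p and miR-539-3p, one to miR-376b-5p and miR-376c-5p, and one to miR-410-5p, miR-494-5p and miR-496-5p.

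The next sequences show the neighbouring hairpins of the miR-376 family and the similar pair miR-381 and miR-300, because such near copies limit how well probes can tell members apart.

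miR-376a-3p: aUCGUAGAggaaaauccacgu
miR-376b-3p: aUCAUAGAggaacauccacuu
miR-376c-3p: aACAUAGAggaaauuucacgu
miR-376a-5p: gGUAGAUUcuccuucuaugag
miR-376b-5p: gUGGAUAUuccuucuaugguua
miR-376c-5p: gUGGAUAUuccuucuauguuu
miR-381-3p: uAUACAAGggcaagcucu
miR-300-3p: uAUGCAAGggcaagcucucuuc

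Over their 21 bases, miR-376a-3p differed from miR-376b-3p at 3 positions and from miR-376c-3p at 4. The 5′ arms of miR-376b and miR-376c differed at 1 of the first 21 positions. miR-381-3p and miR-300-3p differed at 1 of the first 18 positions, which lies in the seed. Signals of these members may share molecules and are uncertain as measures of a single miRNA.

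Most of the region was active in islets. Of the 77 members, 53 were detected on at least 1 array by the scanner software, 40 of them on all 7, and 24 were detected on none. A member not detected has no measured level here, which does not show that it was absent. The 24 were miR-299*, miR-323*, miR-329*, miR-370*, miR-376c*, miR-377*, miR-380, miR-410*, miR-412, miR-412*, miR-485*, miR-487b*, miR-493, miR-493*, miR-494*, miR-496, miR-496*, miR-539*, miR-540, miR-540*, miR-543, miR-665, miR-758* and miR-770. For 5 hairpins no member was detected.

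More members were detected on the arrays of older rats. The counts were 52, 53, 48 and 53 in rats 2, 4, 10 and 16, and 46, 49 and 41 in rats 9, 11 and 13. The arrays of older rats were also brighter as a whole. All miRNAs detected numbered at least 278 at 12 months and at most 272 at 3 months, and the 75th percentile of the raw signal was 67.0 to 73.8 against 37.4 to 55.4. No spot was saturated, and the arrays sat in 2 rows of the slides, each holding both ages. The endocrine miRNAs miR-375 and miR-7a were detected on all 7 arrays, with a summed normalized signal of 33604 to 40172 at 12 months and 39895 to 44122 at 3 months.

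Before any normalization between arrays, 46 of the 48 tested members had a higher mean at 12 months and 42 had an unadjusted p below 0.05 in limma, all 42 of them higher (87.5% of the members, against 71% of all 272 tested miRNAs). The median log2 fold change (12 months minus 3 months) was 0.87 for the members and 0.79 for all tested miRNAs. The raw rise of the members thus stood beside a rise of similar size over the whole array. The signals described from here on are log2 values after quantile normalization, which gives each array the same distribution of values, so a difference is relative to the other miRNAs.

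The 48 tested members, on 34 hairpins, were those detected on all arrays of one age or of both. No member passed an adjusted p of 0.05 in limma with Benjamini-Hochberg adjustment, where 4 of the 272 tested miRNAs (1.47%) did. An unadjusted p below 0.05 was reached by 6 of 48 members (12.5%), against 21.7% of all tested miRNAs. Of these 6, 4 were higher at 12 months (8.33%, against 9.19% of all tested) and 2 were lower (4.17%, against 12.5%). The ages did not overlap for 4 members (8.33%), miR-668, miR-409-3p, miR-539 and miR-382*, against 17.3% of all tested miRNAs. Each of these shares lay below that of the array as a whole.

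The differences were small and mostly in 1 direction. The median log2 fold change of the 48 members was 0.18, beside 0.06 for all tested miRNAs, and 38 of 48 members (79.2%) had a higher mean at 12 months, beside 57.7% of all tested. Of the 38, 7 were tested through the older arrays alone, which builds in their direction. Among the 40 members detected on all 7 arrays, 31 were higher and the median was 0.13. The median of all 238 miRNAs detected on all 7 arrays was 0.03. A change under 0.5 was found for 39 members (81.3%), beside 74.6% of all tested. The 95% interval lay within −1 to 1 for 39 members, that is, a change of more than 2-fold either way was outside the interval, and the median width of the intervals was 0.98. The size depended on the scaling. The member median was 0.01 with the arrays scaled to miR-7a, where that of all tested miRNAs was −0.08. It was 0.15 (all tested 0.07) with scaling to the 75th percentile of the miRNAs detected on all arrays and 0.24 (all tested 0.16) with the 75th percentile of all miRNAs.

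**Figure D1:**
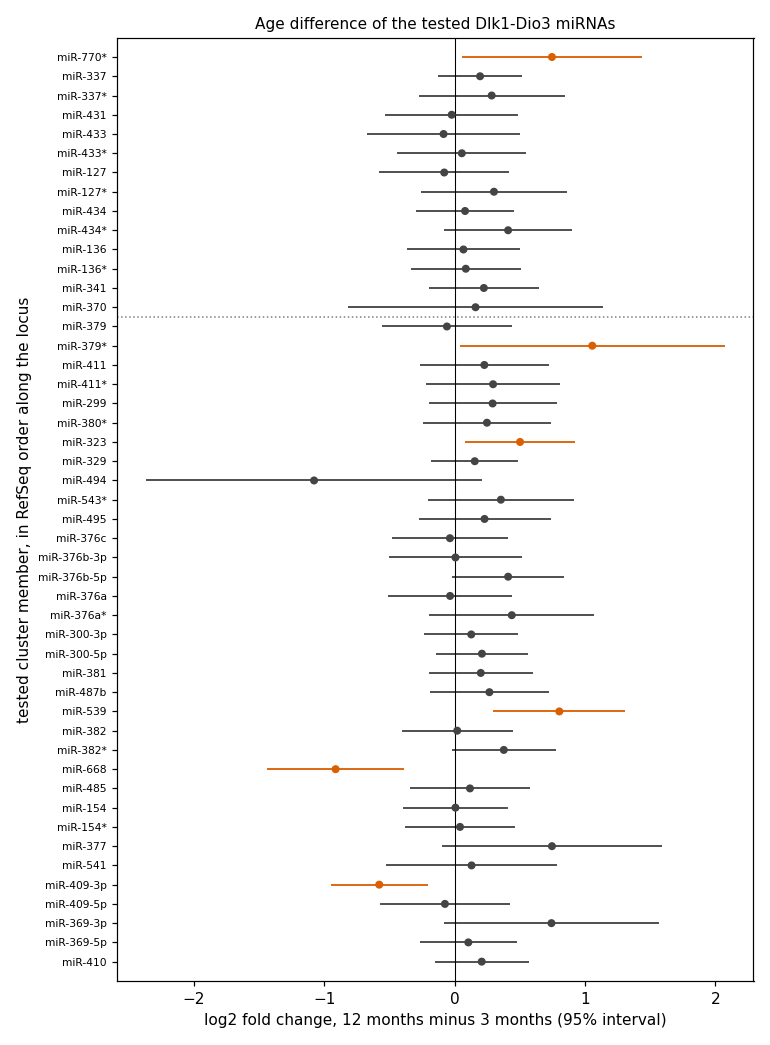
Log2 fold change (12 months minus 3 months, x axis) with its 95% interval from limma for the 48 tested members, in RefSeq order from top to bottom, with n = 4 and 3 rats. Orange marks the 6 members with an unadjusted p below 0.05, and the dotted line separates the 14 members before Mir379 from the 34 members from Mir379 to Mir410.

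The differences did not fall into separate stretches of the locus. The 14 tested members before Mir379 had a median log2 fold change of 0.12, with 11 higher, and the 34 from Mir379 to Mir410 had a median of 0.20, with 27 higher. Brightness separated them more. The 24 members with the dimmer signals, below a mean log2 signal of 6.33, had a median of 0.30 and held all 6 members at an unadjusted p below 0.05, whereas the 24 brighter members had a median of 0.08 and held none. The same split of all tested miRNAs gave 44 of 123 dim and 15 of 149 bright miRNAs at an unadjusted p below 0.05, with medians of 0.12 and 0.03. The dim members included all 7 tested through the older arrays alone, whose higher mean at 12 months is built into the selection. They also included miR-668, tested through the younger arrays alone. Of the 6, miR-668, miR-770* and miR-379* came by these routes, so the split is partly fixed by the detection filter.

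The lower members were miR-668 and miR-409-3p, which come from different hairpins of the stretch from Mir379 to Mir410. The log2 signal of miR-668 was 3.40, 3.30, 2.74 and 3.37 in rats 2, 4, 10 and 16, and 4.03, 3.84 and 4.48 in rats 9, 11 and 13. All older rats lay below all younger rats. The difference was −0.91 (95% interval −1.44 to −0.39, SE 0.23), with an adjusted p of 0.061 in limma and an exact permutation p of 0.0286, the smallest that 4 rats against 3 allow. All 4 probes of miR-668 had a lower mean at 12 months. The raw signals were dim and nearly level between the ages, at 13.2, 12.9, 7.43 and 13.2 in the older and 12.6, 12.5 and 15.5 in the younger rats. The log2 fold change before normalization was −0.24, beside the rise of 0.79 over all tested miRNAs. miR-668 was detected on 3 of 4 older and 3 of 3 younger arrays and was tested because of the younger ones.

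The log2 signal of miR-409-3p was 5.26, 5.26, 4.91 and 5.31 in the older and 5.77, 5.60 and 5.93 in the younger rats. Again the ages did not overlap. The difference was −0.58 (95% interval −0.95 to −0.21, SE 0.16), with an adjusted p of 0.076 in limma, an exact permutation p of 0.0286 and a lower mean at 12 months for each of its 3 probes. In raw signal the direction turned, with a log2 fold change of 0.06 before normalization. The adjusted p of both depended on the scaling. miR-668 and miR-409-3p each had an adjusted p of 0.0273 in limma when arrays were scaled to the 75th percentile of the miRNAs detected on all arrays, and of 0.0965 and 0.167 with the 75th percentile of all miRNAs. In the deposited matrix the differences were −0.49 and −0.45, with adjusted p values of 0.113 and 0.106 in limma. With normexp on the spot signals they were −0.20 and −0.29, with adjusted p values of 0.207 and 0.106.

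miR-539 was the highest-ranked of the members with a higher signal in older rats. Its log2 signal was 5.01, 4.88, 4.31 and 4.86 in the older rats and 4.06, 4.20 and 3.63 in the younger rats. The lowest older rat, rat 10, still lay above the highest younger rat. The difference was 0.80 (95% interval 0.30 to 1.31, SE 0.22), with an adjusted p of 0.076 in limma and an exact permutation p of 0.0571. Of its 4 probes, 1 had a mean of 0 at both ages and another a mean of 0 at 3 months, so the difference rested on the other two. Without rat 10 the difference was 0.95, with an adjusted p of 0.0491 in limma. It was 0.54 with scaling to miR-7a (adjusted p 0.276) and 0.17 with normexp on the spot signals (adjusted p 0.215), and 0.63 without rat 13 (adjusted p 0.257).

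miR-323 had a log2 signal of 5.16, 4.98, 4.63 and 5.16 in the older and 4.48, 4.66 and 4.31 in the younger rats. The ages overlapped through rat 10 alone, which lay just below rat 11. The difference was 0.50 (95% interval 0.08 to 0.92), with an adjusted p of 0.160 in limma and 0.20 as the difference when scaled to miR-7a.

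The starred members miR-770* and miR-379* had larger differences at signals near the detection limit. miR-770* had a log2 signal of 4.54, 4.38, 4.06 and 4.26 in the older and 4.20, 3.63 and 2.86 in the younger rats, a difference of 0.75 (95% interval 0.06 to 1.44) with an adjusted p of 0.191 in limma. It was detected on 4 and 2 arrays, and rat 9 lay within the range of the older rats. The difference was 0.39 without rat 13 and 0.18 with normexp. miR-379* had a log2 signal of 2.67, 2.06, 1.79 and 2.09 in the older and 1.29, 2.003 and 0 in the younger rats, a difference of 1.06 (95% interval 0.04 to 2.07) with an adjusted p of 0.206. It was detected on 4 and 1 arrays, and its value in rat 13 is the floor of the signal. The difference was 0.50 without rat 13, 0.61 with the floor at the lowest detected signal, 0.21 in the deposited matrix and 0.04 with normexp. These were among 7 members tested through the older arrays alone, for which a higher mean at 12 months is built into the selection. The others were miR-380*, miR-376a*, miR-300-5p, miR-377 and miR-369-3p, and the 7 differences ran from 0.21 to 1.06.

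**Figure D2:**
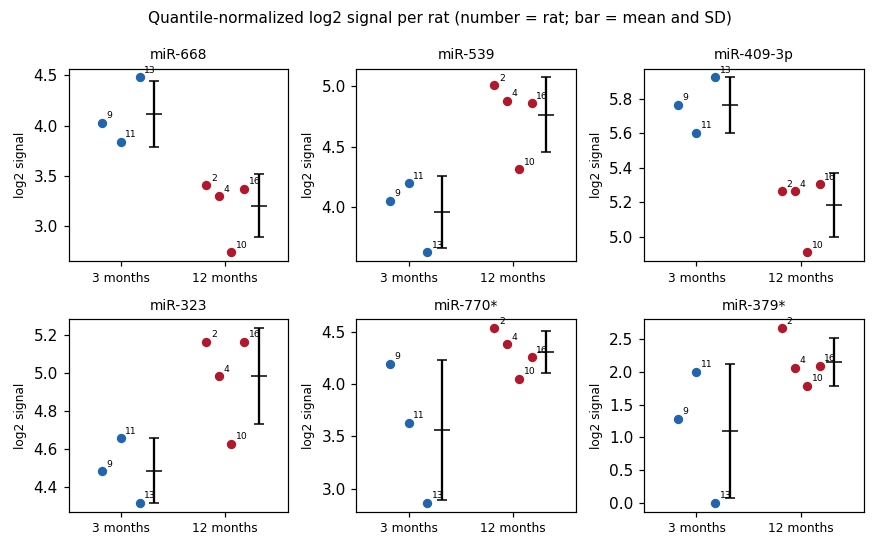
Quantile-normalized log2 signal of each rat (y axis) for the 6 members with an unadjusted p below 0.05 in limma, with the rat number beside each point and the mean and SD of each age as a bar (n = 3 at 3 months, n = 4 at 12 months). The ages do not overlap for miR-668, miR-539 and miR-409-3p, and rat 10 is the lowest older rat in all 6 panels.

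Among the 48 tested members the largest absolute difference was that of miR-494, and that difference rested on 1 rat. Its log2 signal was 8.41, 7.87, 8.52 and 8.12 in the older and 10.88, 8.29 and 8.74 in the younger rats. Rat 9 stood more than 2 log2 units above the other younger rats, and the ages overlapped. The difference was −1.08 (95% interval −2.37 to 0.21), with an adjusted p of 0.323 in limma, and it was −0.31 without rat 9.

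The members with the brightest signals and those named beforehand differed little. miR-127, which is encoded opposite to Rtl1 and pairs with its transcript, had a log2 signal of 11.22, 11.13, 10.71 and 11.06 in the older and 11.55, 10.97 and 10.81 in the younger rats. The ages overlapped and the difference was −0.08 (95% interval −0.58 to 0.42). miR-434, also from the Rtl1 stretch, had 9.88, 9.84, 9.55 and 9.80 against 9.63, 9.93 and 9.51, a difference of 0.08 (95% interval −0.29 to 0.45). The interval of miR-127 leaves room for a fall of up to about 0.58 on the log2 scale, and that of miR-434 for a rise of up to about 0.45.

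The miR-376 members are known for editing of adenosine to inosine in their precursors. miR-376a had a log2 signal of 8.92, 8.79, 8.48 and 8.65 in the older and 9.12, 8.74 and 8.38 in the younger rats, a difference of −0.04 (95% interval −0.51 to 0.44). miR-376c had 7.71, 7.52, 7.07 and 7.497 against 7.52, 7.67 and 7.27, a difference of −0.04 (95% interval −0.48 to 0.41). The ages overlapped for both. Probes of 1 miRNA had means that moved in opposite directions for 6 members, and 4 of these belonged to this family, namely miR-376a, miR-376a*, miR-376b-3p and miR-376c, beside miR-154* and miR-300-3p.

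miR-411 had a log2 signal of 6.87, 6.45, 6.04 and 6.62 in the older and 6.45, 6.29 and 6.06 in the younger rats, a difference of 0.23 (95% interval −0.27 to 0.72). miR-541 had 4.75, 4.57, 3.67 and 4.78 against 4.42, 4.44 and 4.08, a difference of 0.13 (95% interval −0.53 to 0.78). In both, rat 10 lay below every younger rat while the other older rats lay at or above the highest younger rat.

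Another 5 members were detected on some arrays but on all arrays of neither age. miR-134, which limits dendritic spine size in neurons, was detected on 3 older arrays and on no younger one, as were miR-134*, miR-381* and miR-758. The younger mean was taken, on each array, from the lowest detected signal of that array or the member's own signal, whichever was higher. Against it the means at 12 months were 2.09-fold, 1.55-fold, 1.88-fold and 1.15-fold higher. These folds are not strict lower bounds, since each older mean includes an array that did not detect the member. Detection on older arrays alone already goes with a higher older mean. For miR-134* and miR-758 the member's own signal was the higher on all 3 younger arrays, so that the fold is that of the measured means. The exact permutation p values were 0.257, 0.143, 0.0857 and 0.457. miR-541* was detected on 3 older arrays and 1 younger array. The older array that missed the member was that of rat 10 for miR-134*, miR-381*, miR-758 and miR-541*. For miR-134 it was that of rat 2, and rat 10 had the highest log2 signal. The log2 signal of miR-134 was 3.00, 4.03, 4.42 and 2.86 in rats 2, 4, 10 and 16. In rats 9, 11 and 13 it was 3.03, 3.37 and 0, the last being the floor of the signal. Rats 9 and 11 thus lay above rats 2 and 16.

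For 14 hairpins both arms were tested. The arms had a difference of the same sign in 10 of 14. In the 10 pairs that hold a starred name, the starred arm had the more positive difference in 10 of 10 after quantile normalization, and in 8 of 10 when arrays were scaled by a single factor or not at all. All 13 tested starred members had a higher mean at 12 months, with a median log2 fold change of 0.30, beside 0.13 for the 35 other members. Of the 13, 4 were tested through the older arrays alone (miR-770*, miR-379*, miR-380* and miR-376a*), which fixes their direction. Among members detected on all 7 arrays, 9 of 9 starred members had a higher mean at 12 months, with a median of 0.29, beside 22 of 31 others with a median of 0.12. The part of brightness in this difference was not tested. Starred miRNAs outside the cluster were not counted, so the difference is not shown to be particular to the cluster.

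Before normalization and above the floor, the log2 ratio of the arms in a rat does not depend on how bright an array is as a whole. The ratio was compared between the ages for the 14 pairs. After quantile normalization the ratios did not overlap between the ages for 6 pairs, those of Mir127, Mir379, Mir376b, Mir376a, Mir382 and Mir409. Pairs of arms outside the cluster were not counted, so such a share is not shown to be particular to the cluster. Scaling by a single factor leaves each ratio as it is in the raw signals, except where the floor of 1 acts, as for miR-379* in rat 13 (raw signal 0.82). With such scaling and in the raw signals 3 pairs did not overlap, Mir127, Mir376b and Mir409. For miR-376b-3p over miR-376b-5p the ratio fell by 0.27 before normalization and by 0.40 after it, each with an exact permutation p of 0.0286. For miR-409-3p over miR-409-5p it fell by 0.67 and by 0.50, each with an exact permutation p of 0.0286. For miR-127 over miR-127* it fell by 0.16 and by 0.38, each with an exact permutation p of 0.0571.

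No pair passed after adjustment over the 14 pairs, where the lowest Benjamini-Hochberg adjusted exact p of the normalized ratios was 0.1. In the deposited matrix the ratios of Mir127, Mir376b and Mir376a did not overlap, and with normexp on the spot signals only that of Mir382. For Mir409 it was the 3′ arm that was lower in older rats. miR-409-5p had a log2 signal of 7.10, 6.78, 6.31 and 6.85 in the older and 6.96, 6.98 and 6.57 in the younger rats, a difference of −0.08 (95% interval −0.57 to 0.42). For Mir376b the 5′ arm stood higher in older rats, with 6.10, 5.74, 5.42 and 5.87 against 5.37, 5.50 and 5.25, a difference of 0.41 (95% interval −0.02 to 0.84) and an adjusted p of 0.252 in limma.

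**Figure D3:**
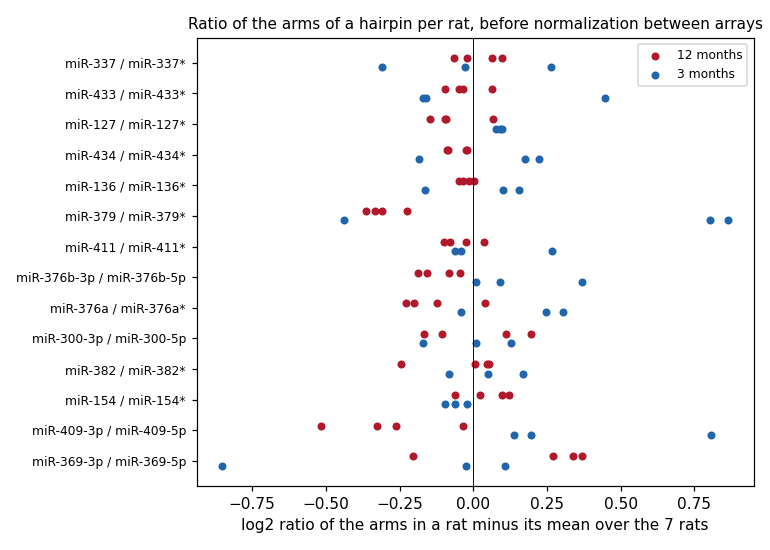
Log2 ratio of the arms of a hairpin in each rat minus its mean over the 7 rats (x axis), from signals before normalization between arrays, for the 14 hairpins with both arms tested. Red points are the 4 rats of 12 months and blue points the 3 rats of 3 months, and the ages do not overlap for the miR-127, miR-376b and miR-409 pairs.

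The members varied together from rat to rat. Of the 48 tested members, 46 had their lowest older value in rat 10 (95.8%), 42 had their highest older value in rat 2 (87.5%) and 42 had their lowest younger value in rat 13 (87.5%). Among the other 224 tested miRNAs the same shares were 41.5%, 33.9% and 30.8%. All 3 features occurred together in 38 of 48 members (79.2%) and in 18 of the other 224 tested miRNAs (8.04%). Among those 18 were miR-182, miR-183 and miR-183*, and also miR-30d and miR-30e, so the pattern was not confined to the cluster. The members of rat 10 that were not lowest were miR-370 and miR-494, named after their values were seen. These counts describe 7 rats and carry no test, since members of 1 locus are not replicates. The 3 features were read from the members' own values, so part of the contrast with the other miRNAs is built in.

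In size, the members of rat 10 lay 0.36 below the mean of their age at the median, and those of rat 2 lay 0.24 above it. In rats 4 and 16 the median deviations were 0.05 and 0.08. In the younger rats they were 0.14, 0.12 and −0.23 in rats 9, 11 and 13. The median of the other tested miRNAs stayed between −0.06 and 0.06 in every rat. Quantile normalization gives each array the same distribution and so largely holds that median near 0, which makes it no independent contrast.

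The pattern of the older rats held under 5 of the 6 other ways of scaling or summarising the signals, with rat 10 lowest in 45 or 46 of 48 members, and failed under the sixth. With the arrays scaled to miR-7a, rat 10 was lowest in 3 of 48 members and rat 2 highest in 1. The raw signal of miR-7a itself was 46071, 38605, 22838 and 43195 in rats 2, 4, 10 and 16, so that it too was lowest in rat 10. Relative to miR-7a, an abundant islet miRNA, the members of rat 10 were therefore not low. The low position of rat 13 among younger rats held in 38 to 47 of 48 members under all 6. The share of the other 224 miRNAs with all 3 features moved with the scaling too. Without normalization it was 25.9%, beside 81.3% of the members, and with scaling to the 75th percentile of the miRNAs detected on all arrays it was 18.3%, beside 66.7%. In the remaining alternatives, that with miR-7a aside, it was 6.70% to 8.04%, beside 70.8% to 77.1%.

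**Figure D4:**
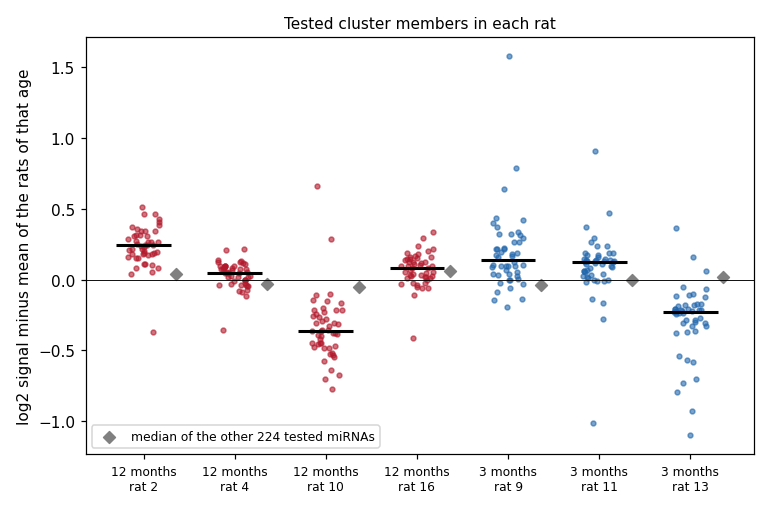
Log2 signal of each of the 48 tested members in each rat minus the mean of the rats of that age (y axis, quantile-normalized), with the median of the members as a black line. Grey diamonds are the medians of the other 224 tested miRNAs, which quantile normalization largely holds near 0. The members of rats 10 and 13 lie below 0.

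Signals of acinar miRNAs moved with this pattern. The acinar list holds 6 array names, of which 4 were detected and 3 tested (miR-216a, miR-217 and miR-216b-5p), and the starred forms of miR-216a and miR-217 were detected on no array. Its summed normalized signal was 126.2, 636, 1389 and 234 in rats 2, 4, 10 and 16, and 1215, 1320 and 2880 in rats 9, 11 and 13. The median log2 signal of the tested members was 6.64, 6.42, 5.89 and 6.43 in the older and 6.40, 6.32 and 5.95 in the younger rats. Within each age, the rat with the highest acinar sum had the lowest cluster level, and the rat with the lowest acinar sum had the highest. The part of acinar tissue in the cluster values was not tested. Sums of other marker lists were set side by side for the ages, with no test over a list. The ranges of the ages overlapped for the mesenchymal, the endothelial and the blood list. The mesenchymal list (8 names, 5 detected) had sums of 1915 to 2804 at 12 months and 1219 to 1921 at 3 months. Within it miR-199a-5p, miR-214 and miR-199a-3p had log2 fold changes of 1.39, 1.30 and 1.16, with adjusted p values of 0.061, 0.061 and 0.082 in limma. Its other tested names, miR-145 and miR-143, had 0.86 and 0.38, with adjusted p values of 0.191 and 0.324. The endothelial list (2 names, 2 detected) had sums of 1623 to 2170 at 12 months and 1702 to 1826 at 3 months. Its miR-126* and miR-126 had log2 fold changes of 0.58 and 0.07, with adjusted p values of 0.078 and 0.899 in limma. The neuronal list (4 names, 1 detected) had sums of 15.99 to 120.6 at 12 months and 4 at 3 months, where each of its names was at the floor of 1. miR-124 was detected on all 4 older arrays and on no younger array, with an adjusted p of 0.00269 in limma, and miR-9 was detected on no array. The blood list (8 names, 5 detected) had sums of 327 to 535 at 12 months and 266 to 507 at 3 months. Its 5 tested names moved both ways. miR-142-5p, detected on all 4 older and no younger arrays, and miR-142-3p had log2 fold changes of 1.31 and 0.91. Their adjusted p values in limma were 0.077 and 0.118. miR-144, miR-451 and miR-223 had −0.69, −0.35 and −0.05, with adjusted p values of 0.565, 0.706 and 0.943 in limma. The part of these cells in the members' differences was not tested.

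**Figure D5:**
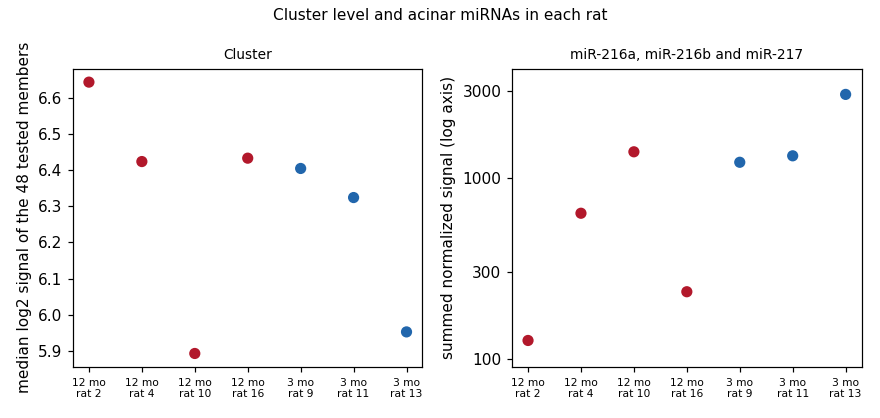
Left, median log2 signal of the 48 tested members in each rat. Right, summed normalized signal of miR-216a, miR-216b and miR-217 in each rat on a log axis, with older rats in red and younger rats in blue. Rats 10 and 13 have the lowest cluster level and the highest acinar sum of their ages.

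Leaving out rat 10 changed the counts of members in the age comparison more than leaving out any other rat. Without it 52 members were tested, and 21 had an unadjusted p below 0.05 in limma (40.4%, against 31.3% of all 281 miRNAs tested then), 19 of them higher and 2 lower at 12 months. An adjusted p below 0.05 was reached by 3 members, against 3.56% of all tested. These were miR-134*, miR-539 and miR-541*, with log2 fold changes of 0.97, 0.95 and 0.85 and adjusted p values of 0.00933, 0.0491 and 0.0499 in limma. The ages did not overlap for 27 members (51.9%, against 35.2% of all tested). The median log2 fold change of the members was then 0.29, beside 0.10 for all tested, with 48 of 52 higher. These counts, and those of the next paragraph, are partly built into the choice of rat 10 and into the selection. Rat 10 had the lowest older value in 46 of the 48 members tested with all rats, so leaving it out raises their older means. The array of rat 10 was the older one that had missed miR-134*, miR-381*, miR-541* and miR-758, so that these 4 became testable through the older arrays alone, and all 4 are among the 21. miR-134* was detected on no younger array, so its value there only limits its level from above.

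Among the 40 members detected on all 7 arrays, the same fit without rat 10 gave an unadjusted p below 0.05 for 13 (32.5%, against 26.9% of the 238 miRNAs detected on all 7), 12 of them higher at 12 months. The ages did not overlap for 16 of the 40 (against 30.3% of the 238), and 1 member, miR-539, had an adjusted p below 0.05 in limma. Their median log2 fold change was 0.22, beside 0.08 for the 238.

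Rats 10 and 13 lay in the same row of the slides as rats 16 and 11, and rats 2, 4 and 9 in the other. The median log2 fold change of the members was 0.18 within the row of rats 2, 4 and 9, 0.11 within the row of rats 10, 16, 11 and 13, and 0.14 with the row as a block in the fit. An unadjusted p below 0.05 in limma was reached by 4 members within the first of these rows, against 12.1% of all tested miRNAs, by 2 within the second, against 11.4%, and by 6 with the block, against 21.3%.

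Among miRNAs of other imprinted loci, 9 names were on the array (miR-296, miR-298, miR-335, miR-483, miR-675 and starred forms) and 5 were tested. Their median log2 fold change was 0.14, with 3 of 5 higher. The member of that list with an unadjusted p below 0.05 was miR-298, with a log2 signal of 4.18, 4.23, 3.76 and 4.03 in the older and 4.57, 4.51 and 4.98 in the younger rats, a difference of −0.64 and an adjusted p of 0.078 in limma. As with miR-668, the ages did not overlap and rat 13 had the highest value. miR-335 had a log2 signal of 9.84, 9.08, 8.14 and 9.55 in the older and 8.79, 8.97 and 8.82 in the younger rats. As in most members, rat 2 was its highest and rat 10 its lowest older rat, but rat 9 was its lowest younger rat. For miR-296*, miR-483 and miR-483*, rat 10 was the highest older rat.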

How the data were processed

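The authors deposited the output of Agilent Feature Extraction (version 10.7.3.1, per the submitters' processing notes) for each array, with background-subtracted intensity values per probe and per miRNA, raw spot intensity and a detection flag. They also deposited a matrix of log2 values of 307 miRNAs, quantile normalized per the notes of the study, with its exact scale and offset not stated; it served as an alternative. For the main values, the total gene signal of the 677 rat miRNAs was floored at 1, put on the log2 scale and quantile normalized in R (version 4.3.3) with the package limma (version 3.58.1). A miRNA was tested where all arrays of one age or of both detected it, which left 272, with lmFit and eBayes (3.03 prior degrees of freedom), two-sided, with Benjamini-Hochberg adjustment over all 272. Single miRNAs and ratios of arms were also tested with a two-sided exact permutation test over the 35 splits of the 7 rats into 4 and 3. The scripts were tested on simulated data.

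Groups follow the age given in each title. Members were named where they passed a p of 0.05, adjusted or not, had one of the 6 largest differences, were detected on some arrays but not all, or came from a hairpin with both arms tested, beside 6 members named in advance. The members and lists were chosen with earlier results of these data known. No column holding comparisons made by the authors was used. Precision is limited by the number of arrays. The alternatives covered scaling, floor, detection filter, background correction (normexp, offset 16), variance model, array weights, slide row, the deposited matrix, the methods' t-test and each rat left out. The ratios of arms, the counts by rat, their values under other scalings and the counts without rat 10 among miRNAs detected on all arrays were added after the data were seen.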

Additional observations from a re-analysis of the deposited data

Results flagged for a closer look

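Among the 4 older rats, 44 member measures were checked for a rat far from the others, by the gap to its nearest neighbour divided by the range of the group. Chance alone marks about 1 in 20 such groups, and measures of 1 locus are not independent. The gap passed the critical value of 0.829 for 4 measures, and in all 4 rat 10 was the lowest.

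For miR-668 the share was 0.836, with a log2 signal of 2.74 in rat 10 and 3.30 to 3.40 in the other older rats. For miR-409-3p it was 0.892, with 4.91 against 5.26 to 5.31. For miR-134* it was 0.891, with 1.35 against 2.61 to 2.77. For miR-136 it was 1, since the other older rats had an equal value of 9.71 after quantile normalization and rat 10 had 9.51. miR-668 and miR-409-3p remained lower at 12 months without rat 10, by −0.75 and −0.47 on the log2 scale, with an adjusted p of 0.082 for each in limma.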

How the results depend on the processing

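No paired analysis was possible because the ages share no replicate numbers. The number of members with an adjusted p below 0.05 (0 in the report) was 2 with scaling to the 75th percentile of the miRNAs detected on all arrays, 1 with scaling to miR-7a, 37 without normalization and 6 with array weights (20, 15, 171 and 48 of all 272 tested miRNAs). When a rat was left out it was 0 to 3, with 3 without rat 10 (10 of all 281 tested then). The number with an unadjusted p below 0.05 (6) was 3, 3, 42 and 15 in the same order (53, 37, 193 and 89 of all tested). It was 3 among the 40 members detected on all arrays (44 of all 238 such miRNAs) and 2 within the second slide row (31 of all 272). When a rat was left out it was 3 to 21, with 3 without rat 2 or without rat 4 and 21 without rat 10 (88 of all 281 tested then). Members whose ages do not overlap (4) numbered 4 to 27 when a rat was left out, with 27 without rat 10 (99 of all 281 tested then). They numbered 17 without normalization and 36 within the first slide row, where only 3 arrays remain. The counts over all tested miRNAs are not given for these other settings, so 17 and 36 are no result about the members. The member median was 0.87 without normalization, and 0.07 to 0.29 when a rat was left out, lowest without rat 13. Rat 10 was lowest in 3 members with scaling to miR-7a. Pairs of arms that do not overlap (6) numbered 3 with each scaling by 1 factor, without normalization and in the deposited matrix, 1 with normexp, and 6 to 7 when a rat was left out.

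The direction turned for miR-300-5p (−0.0324) and miR-380* (−0.0698) with scaling to miR-7a, for miR-409-3p (0.0575) without normalization and for miR-337* (−0.0440) within the first slide row. Of the 37 named members tested, 17 had a difference smaller than its SE, and turns of sign of those, up to 9 under a setting, are not among these. The causes were not tested. Signal over background limits the dim members, since 8 of the 48 were detected on all arrays of 1 age alone.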

Other observations

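The array also holds 12 names from hairpins of the region that the name rule leaves out. Of these, 2 were detected and tested, miR-1188-3p and miR-667, and they are named after their values were seen. miR-1188-3p had a log2 signal of 3.60, 3.76, 3.50 and 3.78 in rats 2, 4, 10 and 16 and 4.18, 4.14 and 4.51 in rats 9, 11 and 13, a difference of −0.62 with an adjusted p of 0.061 in limma. miR-667 had 4.14, 4.14, 3.93 and 4.11 against 4.63, 4.43 and 4.75, a difference of −0.52 with an adjusted p of 0.076. miR-1188-3p was detected on 3 of 4 older and 3 of 3 younger arrays and was tested because of the younger ones. For miR-1188-3p and miR-667, all older rats lay below all younger rats and rat 13 was the highest, as for miR-668 and miR-409-3p. Among the 48 tested members of the cluster, rat 13 was the highest younger rat in these 2 alone.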
